A study of Mus musculus with 14 samples.

Results

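Interferon-stimulated genes are the genes that cells switch on after an interferon binds its receptor. The set described here was a named list of 41 such genes: transcription factors, nucleic acid sensors, oligoadenylate synthetases, antiviral effectors, enzymes of the ISG15, ubiquitin and ADP-ribose systems, guanylate-binding proteins and antigen processing genes. Each gene was read from its own probe set on an Affymetrix whole-transcript array, and the probe set with the highest mean was taken where a gene had more than 1. Of the 41 genes, 38 were measured, out of 19935 genes in all. Isg15 and Gbp2 lay only on probe sets annotated to 2 genes and were not read, and Ifi44 was not analysed here.

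The cells were embryonic fibroblasts of ICR mice, kept in medium for embryonic stem cells, and they gave 14 arrays. One group was transduced with SKO and the class IIa histone deacetylase HDAC7, another with SKO and the transcription factor MEF2C, and another with SKO and the empty Flag vector. SKO is not expanded in the labels; in this field it usually means Sox2, Klf4 and Oct4, the last encoded by Pou5f1, a set used to reprogram somatic cells. All 3 of these groups carry SKO, and each had 2 arrays at day 10 and 2 at day 6. The last group received GFP and no SKO, with 1 array at each day. Feeder cells were removed before lysis, and how completely is not given in the sources used here. The design sets each added factor against the empty vector on the SKO background.

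The added factors and 1 of those that SKO usually names were high where the labels place them. Hdac7 lay between 11.16 and 11.38 on the SKO+HDAC7 arrays, against 6.78 to 7.44 on the other arrays. Mef2c lay between 9.48 and 9.93 on the SKO+MEF2C arrays, against 6.31 to 6.81 elsewhere, and Pou5f1 between 11.70 and 12.10 on the SKO arrays, against 5.18 and 5.24 with GFP. Of the others, Sox2 was not clearly higher with SKO than with GFP, and Klf4 was so in some comparisons only. Sox2 lay between 5.04 and 5.37 on the SKO arrays, against 5.27 at day 10 and 4.93 at day 6 with GFP, below the array median throughout. Klf4 lay between 8.80 and 9.18, against 8.66 at day 10 and 8.93 at day 6 with GFP. By the limma threshold given below, Klf4 was called higher than with GFP in SKO+HDAC7 averaged over days and in SKO+Flag at day 10. It was not called in SKO+Flag at day 6, nor in SKO+Flag or SKO+MEF2C averaged over days. Whether these probe sets read the transduced copies was not tested. The medians of the arrays ran from 5.68 to 5.76, and no detection calls were used. These medians are over all probe sets, and the median over the genes kept, with 1 probe set per gene, is another mark. Of the 38 genes, 5 (Oas3, Mx1, Mx2, Rsad2 and Cmpk2) did not exceed that gene median on any array. A signal over background is therefore not shown for them. Another 14 lay above the gene median on some arrays, Gbp4 on 4 and Oas2 on 8, and 19 on every array. Elsewhere the array median is that of all probe sets. A level in a cell population cannot tell fewer cells of a type apart from less RNA per cell.

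Interferons signal through receptors that activate JAK kinases, which phosphorylate STAT proteins. STAT2 and IRF9 are part of a complex that binds interferon-stimulated response elements (ISREs) in promoters, whereas STAT dimers formed after interferon gamma bind GAS elements. Fibroblasts are a classical responder cell: viral nucleic acid in the cytosol is sensed by helicases and other sensors, interferon beta is secreted, and IRF7, itself an interferon-stimulated gene, amplifies the response.

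The promoters of 5 genes are shown to set genes that carry ISRE-like letters beside a strongly changing gene that does not. The stretches are the 250 bases before the transcription start in the RefSeq promoter table for GRCm38.p6. They lie at chr19:34640639-34640888 (plus strand) for Ifit1, chr8:71537473-71537722 (minus strand) for Bst2, chr3:142559794-142560043 (plus strand) for Gbp3, chr5:120777660-120777909 (minus strand) for Oas3 and chr5:114896684-114896933 (plus strand) for Oasl2. Each is written 5′ to 3′ on the strand of its gene, with every match to GAAANNGAAA or its reverse complement in capitals.
Ifit1: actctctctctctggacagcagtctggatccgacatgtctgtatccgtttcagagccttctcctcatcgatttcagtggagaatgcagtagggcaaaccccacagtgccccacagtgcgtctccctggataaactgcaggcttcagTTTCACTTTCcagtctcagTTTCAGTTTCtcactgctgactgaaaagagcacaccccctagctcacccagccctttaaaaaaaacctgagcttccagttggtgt
Bst2: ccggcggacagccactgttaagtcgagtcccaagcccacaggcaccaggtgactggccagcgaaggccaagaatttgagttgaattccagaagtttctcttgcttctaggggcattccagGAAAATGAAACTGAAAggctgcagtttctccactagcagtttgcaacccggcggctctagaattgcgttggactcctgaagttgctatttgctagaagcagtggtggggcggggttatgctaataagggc
Gbp3: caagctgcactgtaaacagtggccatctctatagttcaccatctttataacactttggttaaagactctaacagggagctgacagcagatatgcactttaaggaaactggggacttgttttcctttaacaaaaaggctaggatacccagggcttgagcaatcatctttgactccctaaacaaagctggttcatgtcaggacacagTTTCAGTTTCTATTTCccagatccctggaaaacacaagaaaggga
Oas3: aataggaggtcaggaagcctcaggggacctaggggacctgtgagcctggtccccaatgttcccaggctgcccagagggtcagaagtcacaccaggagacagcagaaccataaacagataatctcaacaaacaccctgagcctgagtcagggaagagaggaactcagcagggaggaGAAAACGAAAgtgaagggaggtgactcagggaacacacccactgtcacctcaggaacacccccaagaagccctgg
Oasl2: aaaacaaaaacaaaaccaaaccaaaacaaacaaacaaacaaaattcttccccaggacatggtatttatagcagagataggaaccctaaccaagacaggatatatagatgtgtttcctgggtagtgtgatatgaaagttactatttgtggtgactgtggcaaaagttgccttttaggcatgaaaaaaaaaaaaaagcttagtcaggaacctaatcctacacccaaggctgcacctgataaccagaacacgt
Positions are counted with the start base as 0. In Ifit1 the matches began at -104 and -85, in Bst2 at -130 and -124, in Gbp3 at -45 and -39, and in Oas3 at -75. The matches overlap in Bst2 and in Gbp3. Gbp3 has another RefSeq promoter window, at chr3:142560106-142560405, which holds no ISRE-like match and is not printed. Oasl2 had no match in this window, and its expression is given below among the genes that differed most. Over windows of 300 bases, from 250 before to 50 after the start and on both strands, the ISRE-like letters were found in 13 of 30 listed genes with a window (43.3%), against 1079 of 27025 genes in the table (3.99%). The GAS letters TTCNNNGAA were found in 7 of 30 (23.3%), against 9.55% of all genes. These matches describe letters and are not shown to be sites.

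With HDAC7 added to SKO, 15 of the 38 genes were higher than with the empty vector and 0 were lower, averaging the differences of the 2 days (4 arrays against 4). With MEF2C added, 0 were higher and 17 were lower. A gene was called higher or lower at a limma adjusted p under 0.05, Benjamini-Hochberg adjusted over all 19935 genes. Of all genes, 4.83% were called higher and 6.06% lower with HDAC7, and 5.49% higher and 4.82% lower with MEF2C. The median log2 difference of the 38 genes was 0.19 with HDAC7, beside 0.02 over all genes, and -0.23 with MEF2C, beside 0.01 over all genes. At an unadjusted p under 0.05 in limma, 19 genes were higher and 1 lower with HDAC7, and 1 was higher and 23 lower with MEF2C. No share of all genes was counted at the unadjusted threshold, here or below, so these counts have no background beside them. Both comparisons use the same 4 SKO+Flag arrays. The labels number the arrays of a group as experiments without saying that they came from separate cultures, so p-values cover no more than the array-to-array spread, which could be technical.

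**Figure D1:**
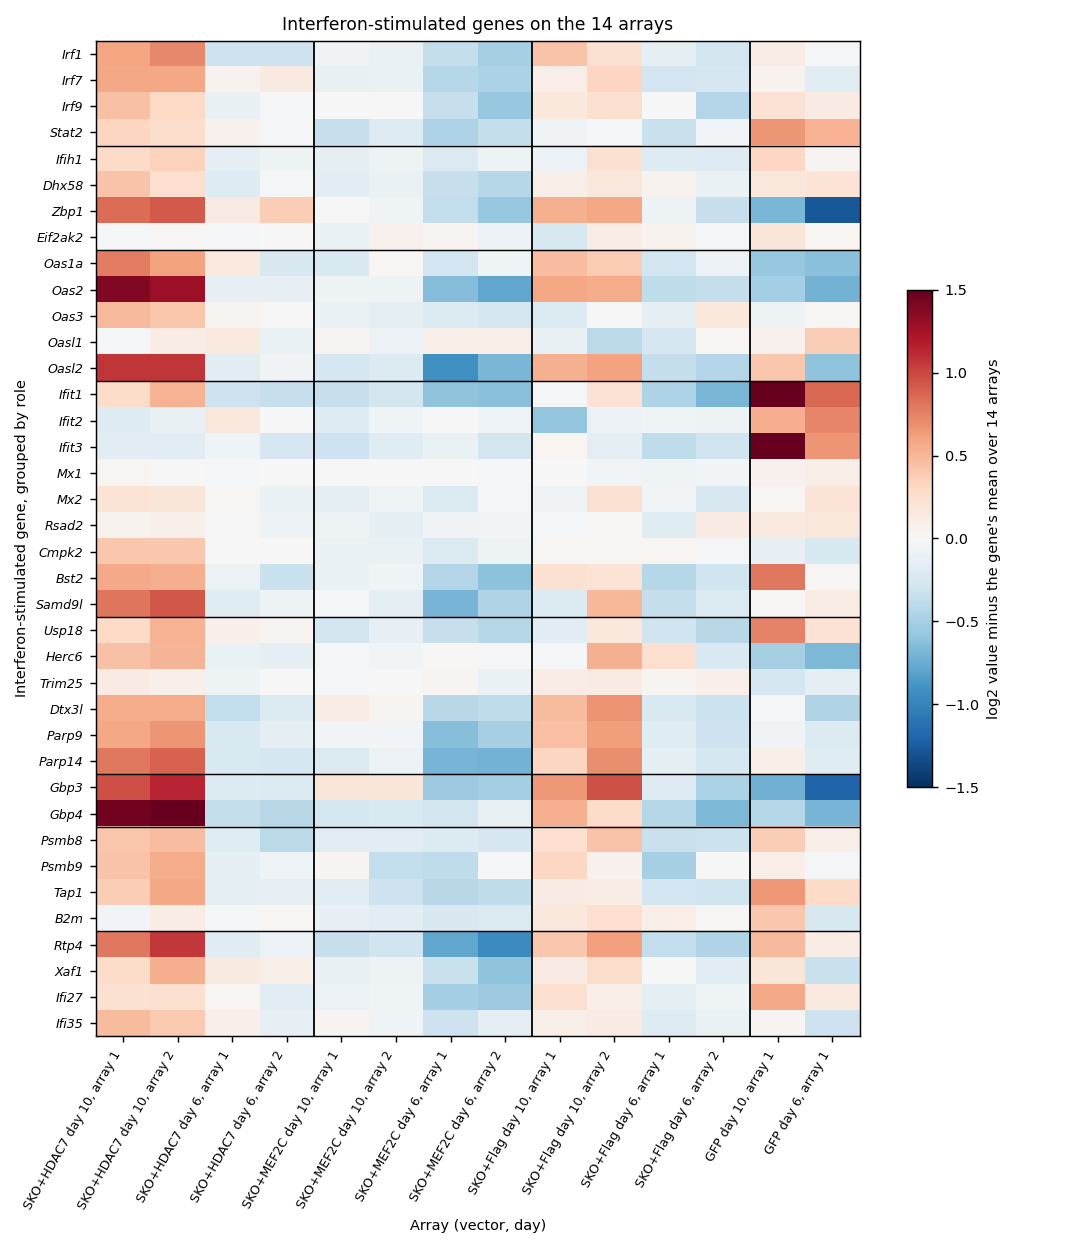
Heat map of the 38 measured genes, grouped by role (down the page), on the 14 arrays (across), as log2 value minus the mean of the gene over the 14 arrays. Colours end at 1.5 in either direction, and the SKO+HDAC7 arrays of day 10 are the reddest columns for Oas2, Oasl2, Gbp3, Gbp4 and Rtp4, whereas the GFP arrays are the reddest for Ifit1 and Ifit3.

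Averaged over the 38 genes, the log2 level was 6.99 and 7.04 on the SKO+HDAC7 arrays of day 10 and 6.46 and 6.44 on those of day 6. It was 6.43 and 6.44 with SKO+MEF2C at day 10 and 6.20 on both arrays at day 6. With SKO+Flag it was 6.69 and 6.80 at day 10 and 6.35 and 6.32 at day 6. The GFP arrays stood at 6.72 at day 10 and 6.46 at day 6. At each day the SKO+HDAC7 arrays lay above the SKO+Flag arrays and the SKO+MEF2C arrays below them, with no overlap.

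The transcription factors of the pathway held 4 measured genes, of which 2 were higher with HDAC7 and 2 lower with MEF2C. Irf7, the amplifying factor, read 7.46 and 7.47 at day 10 and 6.93 and 7.02 at day 6 in SKO+HDAC7, 6.77 and 6.79 at day 10 and 6.46 and 6.41 at day 6 in SKO+MEF2C, 6.99 and 7.21 at day 10 and 6.60 and 6.63 at day 6 in SKO+Flag, and 6.94 at day 10 and 6.72 at day 6 in GFP. Both SKO+HDAC7 arrays lay above both SKO+Flag arrays at each day, and both SKO+MEF2C arrays lay below them. The log2 difference from SKO+Flag was 0.37 ± 0.05 (SE) with HDAC7 (adjusted p = 0.00104) and -0.25 ± 0.05 with MEF2C (adjusted p = 0.0101). Irf1, a factor that both interferon gamma and viral RNA induce, read 7.10 and 7.22 at day 10 and 6.19 and 6.19 at day 6 in SKO+HDAC7, 6.45 and 6.40 at day 10 and 6.14 and 5.998 at day 6 in SKO+MEF2C, 6.93 and 6.73 at day 10 and 6.35 and 6.22 at day 6 in SKO+Flag, and 6.62 at day 10 and 6.48 at day 6 in GFP. Its SKO+HDAC7 arrays lay below SKO+Flag at day 6 and above at day 10, while its SKO+MEF2C arrays lay below at both days. The MEF2C difference was -0.32 ± 0.06 (adjusted p = 0.00576), and the HDAC7 difference of 0.11 ± 0.06 did not pass the test (adjusted p = 0.255). Irf1 had a second probe set of its own that stood -0.05 from SKO+Flag with MEF2C, and with the mean of both probe sets the difference was -0.18 (adjusted p = 0.0675).

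Stat2, the STAT protein particular to the ISRE-binding complex, read 7.75 and 7.69 at day 10 and 7.49 and 7.41 at day 6 in SKO+HDAC7, 7.08 and 7.23 at day 10 and 6.96 and 7.07 at day 6 in SKO+MEF2C, 7.38 and 7.39 at day 10 and 7.09 and 7.39 at day 6 in SKO+Flag, and 8.09 at day 10 and 7.94 at day 6 in GFP. The 2 GFP arrays were the highest of the 14, and the SKO+HDAC7 arrays lay above those of SKO+Flag at each day. The HDAC7 difference was 0.27 ± 0.07 (adjusted p = 0.024), whereas the MEF2C difference of -0.23 ± 0.07 missed the threshold (adjusted p = 0.0575). The HDAC7 call was lost without SKO+Flag day 6 array 1, SKO+HDAC7 day 6 array 1 or either SKO+HDAC7 array of day 10, at an adjusted p of up to 0.0843. Irf9, the DNA-binding subunit of that complex, ranged from 6.55 to 7.56 over the 14 arrays and stood at 0.16 ± 0.09 with HDAC7 and -0.22 ± 0.09 with MEF2C, neither past the threshold.

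Among the 4 sensors, Zbp1 moved most. Zbp1, which binds Z-form nucleic acid and can start cell death, read 7.70 and 7.78 at day 10 and 6.99 and 7.24 at day 6 in SKO+HDAC7, 6.88 and 6.80 at day 10 and 6.50 and 6.30 at day 6 in SKO+MEF2C, 7.40 and 7.45 at day 10 and 6.79 and 6.52 at day 6 in SKO+Flag, and 6.18 at day 10 and 5.60 at day 6 in GFP. Within each day the arrays fell in the order SKO+HDAC7, SKO+Flag, SKO+MEF2C and GFP, from high to low, with no overlap. It was 1.31-fold higher with HDAC7 than with SKO+Flag (0.39 ± 0.08, adjusted p = 0.00784), and with MEF2C the log2 difference was -0.42 ± 0.08 (adjusted p = 0.00476). Dhx58, which encodes LGP2, a helicase that tunes RNA sensing, read 6.09 and 5.92 at day 10 and 5.48 and 5.64 at day 6 in SKO+HDAC7, 5.50 and 5.57 at day 10 and 5.32 and 5.24 at day 6 in SKO+MEF2C, 5.76 and 5.83 at day 10 and 5.72 and 5.57 at day 6 in SKO+Flag, and 5.84 at day 10 and 5.88 at day 6 in GFP. The SKO+MEF2C arrays were below the SKO+Flag arrays at each day, and the SKO+HDAC7 arrays overlapped them at day 6. Dhx58 differed by -0.31 ± 0.06 with MEF2C (adjusted p = 0.00617) and stood at 0.06 ± 0.06 with HDAC7 (adjusted p = 0.56). Dhx58 is dim and lay above the gene median on 1 array only. Ifih1, the RNA helicase MDA5, ranged from 5.60 to 6.17 and was not called in either comparison (0.16 ± 0.07 with HDAC7, -0.07 ± 0.07 with MEF2C). Eif2ak2, the RNA-activated kinase PKR, ranged from 7.17 to 7.59, and its groups overlapped at both days (0.02 ± 0.07 and 0.01 ± 0.07).

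The oligoadenylate synthetases make the short adenylate chains that activate RNase L, and the OAS-like proteins belong to the same family. Of 5 measured, 3 were higher with HDAC7 and 2 lower with MEF2C. Oas2 read 7.51 and 7.41 at day 10 and 6.005 and 6.002 at day 6 in SKO+HDAC7, 6.05 and 6.05 at day 10 and 5.48 and 5.35 at day 6 in SKO+MEF2C, 6.71 and 6.69 at day 10 and 5.75 and 5.77 at day 6 in SKO+Flag, and 5.61 at day 10 and 5.42 at day 6 in GFP. The SKO+HDAC7 arrays of day 10 were the highest of all, and within each day SKO+HDAC7, SKO+Flag and SKO+MEF2C did not overlap. The difference from SKO+Flag was 0.51 ± 0.04 with HDAC7 (adjusted p = 3.95e-05) and -0.49 ± 0.04 with MEF2C (adjusted p = 4.92e-05). Oasl2, whose promoter stretch is shown above without an ISRE-like match, read 8.27 and 8.27 at day 10 and 7.03 and 7.15 at day 6 in SKO+HDAC7, 6.95 and 6.99 at day 10 and 6.28 and 6.51 at day 6 in SKO+MEF2C, 7.74 and 7.81 at day 10 and 6.84 and 6.76 at day 6 in SKO+Flag, and 7.61 at day 10 and 6.60 at day 6 in GFP. Again SKO+HDAC7 lay above and SKO+MEF2C below SKO+Flag at each day. Oasl2 differed by 0.39 ± 0.06 with HDAC7 (adjusted p = 0.00127) and by -0.60 ± 0.06 with MEF2C (adjusted p = 6.8e-05).

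Oas3, a dim member, read 5.87 and 5.80 at day 10 and 5.43 and 5.38 at day 6 in SKO+HDAC7, 5.29 and 5.25 at day 10 and 5.18 and 5.12 at day 6 in SKO+MEF2C, 5.18 and 5.38 at day 10 and 5.24 and 5.54 at day 6 in SKO+Flag, and 5.30 at day 10 and 5.40 at day 6 in GFP. Its SKO+HDAC7 arrays stood above SKO+Flag at day 10 and overlapped them at day 6. The HDAC7 difference was 0.28 ± 0.07 (adjusted p = 0.0216). That call was lost without SKO+Flag day 6 array 1, SKO+Flag day 10 array 1, either SKO+HDAC7 array of day 6 or SKO+HDAC7 day 10 array 1, at an adjusted p of up to 0.0782, and also in a fit of the compared groups alone. With MEF2C, Oas3 stood at -0.13 ± 0.07 (adjusted p = 0.315). Oas1a ranged from 5.27 to 6.67 (0.20 ± 0.10 with HDAC7, -0.26 ± 0.10 with MEF2C) and Oasl1 from 5.71 to 6.48 (0.22 ± 0.08 and 0.22 ± 0.08), and neither was called. Whether probes of these related genes cross-hybridise was not checked.

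**Figure D2:**
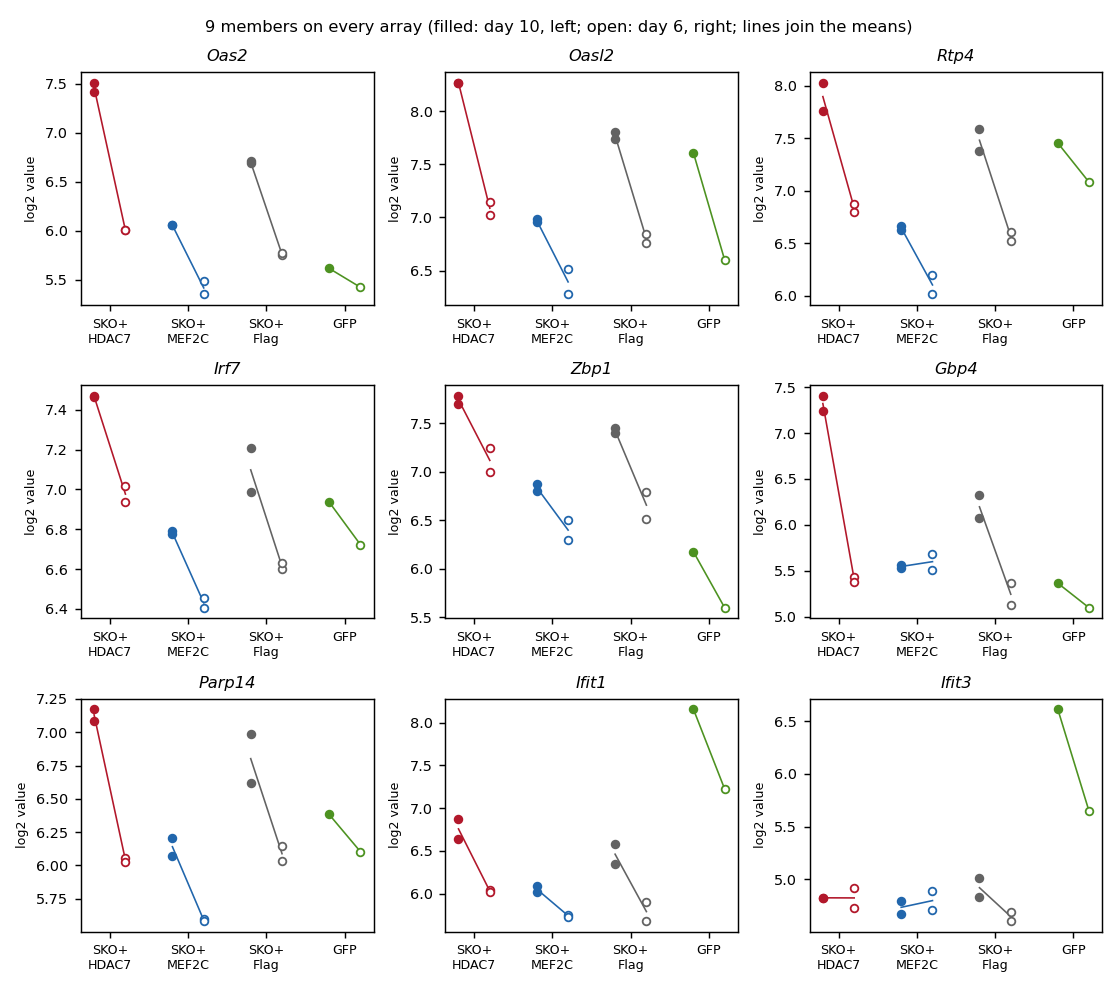
Log2 value of 9 genes on every array for SKO+HDAC7, SKO+MEF2C, SKO+Flag and GFP, with filled points for day 10 (left of each pair), open points for day 6 and lines joining the means of the days. Oas2, Oasl2, Rtp4, Irf7 and Zbp1 were highest on the SKO+HDAC7 arrays of day 10, whereas Ifit1 and Ifit3 were highest on the GFP arrays. Each panel has its own vertical axis.

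Of the 9 antiviral effectors, 4 were higher with HDAC7 and 1 lower with MEF2C. Bst2, or tetherin, which holds budding virions on the cell surface, read 7.99 and 7.97 at day 10 and 7.34 and 7.09 at day 6 in SKO+HDAC7, 7.33 and 7.36 at day 10 and 6.99 and 6.81 at day 6 in SKO+MEF2C, 7.65 and 7.62 at day 10 and 6.996 and 7.12 at day 6 in SKO+Flag, and 8.22 at day 10 and 7.44 at day 6 in GFP. The SKO+HDAC7 arrays were above SKO+Flag at day 10 and overlapped them at day 6, and the SKO+MEF2C arrays were below at both days. It differed by 0.25 ± 0.06 with HDAC7 (adjusted p = 0.0269) and by -0.23 ± 0.06 with MEF2C (adjusted p = 0.043). The HDAC7 call was lost without SKO+Flag day 6 array 1, SKO+Flag day 10 array 2, SKO+HDAC7 day 6 array 1 or either SKO+HDAC7 array of day 10 (adjusted p up to 0.0941). The MEF2C call was lost without any one SKO+Flag array, either SKO+HDAC7 array of day 10, SKO+MEF2C day 6 array 2 or either SKO+MEF2C array of day 10 (adjusted p up to 0.159), and with quantile normalization (adjusted p = 0.0534).

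Samd9l, a cytoplasmic protein that restricts poxviruses, read 6.78 and 6.91 at day 10 and 5.79 and 5.91 at day 6 in SKO+HDAC7, 5.95 and 5.82 at day 10 and 5.28 and 5.53 at day 6 in SKO+MEF2C, 5.78 and 6.48 at day 10 and 5.62 and 5.76 at day 6 in SKO+Flag, and 5.99 at day 10 and 6.08 at day 6 in GFP. Its SKO+HDAC7 arrays lay above SKO+Flag at each day, although the SKO+Flag arrays of day 10 were 0.70 apart, the widest gap of any of the 38 genes in any pair of replicate arrays. The HDAC7 difference was 0.44 ± 0.13 (adjusted p = 0.0471). The call was lost without any one of 10 arrays (both SKO+Flag arrays of day 6, all 4 SKO+HDAC7 arrays and all 4 SKO+MEF2C arrays), at an adjusted p of up to 0.133, and also with median centring and in a fit of the compared groups alone. With MEF2C it stood at -0.26 ± 0.13 (adjusted p = 0.252).

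Ifit1, which binds viral RNA that lacks the host cap methylation and whose promoter stretch above holds 2 ISRE-like matches, read 6.64 and 6.88 at day 10 and 6.05 and 6.01 at day 6 in SKO+HDAC7, 6.02 and 6.09 at day 10 and 5.75 and 5.73 at day 6 in SKO+MEF2C, 6.35 and 6.58 at day 10 and 5.90 and 5.68 at day 6 in SKO+Flag, and 8.16 at day 10 and 7.22 at day 6 in GFP. The 2 GFP arrays were far above the 12 SKO arrays, and among these SKO+HDAC7 lay above SKO+Flag at each day. The HDAC7 difference was 0.27 ± 0.07 (adjusted p = 0.0369), and the MEF2C difference was -0.23 ± 0.07 (adjusted p = 0.0728). The HDAC7 call was lost without any one of 9 arrays (SKO+Flag day 6 array 2, SKO+Flag day 10 array 1, both SKO+HDAC7 arrays of day 6, SKO+HDAC7 day 10 array 2 and all 4 SKO+MEF2C arrays; adjusted p up to 0.121). It was also lost under quantile normalization, median centring and a fit of the compared groups alone. Cmpk2, a nucleotide kinase next to Rsad2 in the genome, read 5.85 and 5.85 at day 10 and 5.44 and 5.45 at day 6 in SKO+HDAC7, 5.34 and 5.35 at day 10 and 5.23 and 5.36 at day 6 in SKO+MEF2C, 5.46 and 5.47 at day 10 and 5.47 and 5.42 at day 6 in SKO+Flag, and 5.32 at day 10 and 5.20 at day 6 in GFP. Its SKO+HDAC7 arrays of day 10 were the highest, and the SKO+MEF2C arrays lay below SKO+Flag at each day. It differed by 0.19 ± 0.04 with HDAC7 (adjusted p = 0.0151), a call lost with an intensity-dependent robust prior, quantile normalization or median centring, and by -0.14 ± 0.04 with MEF2C (adjusted p = 0.0686).

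The other 5 effectors were not called in either comparison. Ifit2 ranged from 5.09 to 6.41 over the 14 arrays and Ifit3 from 4.60 to 6.62, both highest with GFP. Mx1, Mx2 and Rsad2, the Mx GTPases and viperin, stayed between 4.43 and 5.50, below the median gene. Their differences from SKO+Flag ran from 0.03 to 0.10 with HDAC7 and from -0.09 to 0.03 with MEF2C. Many inbred mouse strains carry a defective Mx1 gene, and the state of Mx1 in these cells was not tested.

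Among the 6 enzymes of the ISG15, ubiquitin and ADP-ribose systems, 1 was higher with HDAC7 and 3 were lower with MEF2C. Usp18, which removes ISG15 from proteins and dampens interferon receptor signalling, read 6.98 and 7.20 at day 10 and 6.76 and 6.72 at day 6 in SKO+HDAC7, 6.40 and 6.55 at day 10 and 6.33 and 6.25 at day 6 in SKO+MEF2C, 6.52 and 6.84 at day 10 and 6.38 and 6.26 at day 6 in SKO+Flag, and 7.42 at day 10 and 6.89 at day 6 in GFP. It was above SKO+Flag on the SKO+HDAC7 arrays of each day, and SKO+MEF2C overlapped SKO+Flag at both days. It differed by 0.41 ± 0.08 with HDAC7 (adjusted p = 0.00561) and by -0.12 ± 0.08 with MEF2C (adjusted p = 0.444).

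Parp14, an ADP-ribosyltransferase, read 7.09 and 7.17 at day 10 and 6.06 and 6.02 at day 6 in SKO+HDAC7, 6.07 and 6.21 at day 10 and 5.60 and 5.58 at day 6 in SKO+MEF2C, 6.62 and 6.99 at day 10 and 6.14 and 6.03 at day 6 in SKO+Flag, and 6.38 at day 10 and 6.10 at day 6 in GFP. The SKO+MEF2C arrays lay below SKO+Flag at each day, by -0.58 ± 0.07 on average (adjusted p = 0.000509), and the HDAC7 difference was 0.14 ± 0.07 (adjusted p = 0.267). Parp9, which works in a complex with DTX3L, read 7.80 and 7.88 at day 10 and 6.99 and 7.07 at day 6 in SKO+HDAC7, 7.17 and 7.17 at day 10 and 6.58 and 6.72 at day 6 in SKO+MEF2C, 7.66 and 7.84 at day 10 and 7.03 and 6.91 at day 6 in SKO+Flag, and 7.16 at day 10 and 7.01 at day 6 in GFP. The SKO+HDAC7 and SKO+Flag arrays overlapped at both days, whereas those of SKO+MEF2C were lower at both. Parp9 differed by -0.45 ± 0.06 with MEF2C (adjusted p = 0.000423) and by 0.07 ± 0.06 with HDAC7 (adjusted p = 0.474). Dtx3l, its ubiquitin ligase partner, read 7.20 and 7.19 at day 10 and 6.27 and 6.42 at day 6 in SKO+HDAC7, 6.75 and 6.68 at day 10 and 6.22 and 6.25 at day 6 in SKO+MEF2C, 7.12 and 7.31 at day 10 and 6.41 and 6.32 at day 6 in SKO+Flag, and 6.63 at day 10 and 6.19 at day 6 in GFP. It showed the same layout, with -0.31 ± 0.05 for MEF2C (adjusted p = 0.0041) and -0.02 ± 0.05 for HDAC7 (adjusted p = 0.899). Herc6, the mouse ligase that attaches ISG15, ranged from 6.05 to 7.24 and Trim25, a ubiquitin ligase of the RNA-sensing pathway, from 7.41 to 7.79, and neither was called.

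Of the 2 guanylate-binding proteins, GTPases that attack the vacuoles of intracellular pathogens, Gbp4 was called with HDAC7 and Gbp3 with MEF2C. Gbp4 read 7.24 and 7.41 at day 10 and 5.43 and 5.38 at day 6 in SKO+HDAC7, 5.53 and 5.56 at day 10 and 5.51 and 5.69 at day 6 in SKO+MEF2C, 6.32 and 6.07 at day 10 and 5.37 and 5.12 at day 6 in SKO+Flag, and 5.36 at day 10 and 5.10 at day 6 in GFP. The SKO+HDAC7 arrays of day 10 stood apart from the other 12, and the SKO+MEF2C arrays lay above SKO+Flag at day 6 and below it at day 10. As the mean of both days Gbp4 differed by 0.64 ± 0.07 with HDAC7 (adjusted p = 0.000282), the widest HDAC7 difference of the 38 genes, and by -0.15 ± 0.07 with MEF2C (adjusted p = 0.287). Gbp3, whose promoter stretch above holds overlapping ISRE-like matches near the start, read 8.03 and 8.21 at day 10 and 6.87 and 6.85 at day 6 in SKO+HDAC7, 7.25 and 7.25 at day 10 and 6.52 and 6.56 at day 6 in SKO+MEF2C, 7.72 and 8.02 at day 10 and 6.87 and 6.60 at day 6 in SKO+Flag, and 6.34 at day 10 and 5.87 at day 6 in GFP. All 12 SKO arrays were above both GFP arrays, and SKO+MEF2C lay below SKO+Flag at each day. The MEF2C difference was -0.41 ± 0.08 (adjusted p = 0.00621) and the HDAC7 difference 0.19 ± 0.08 (adjusted p = 0.159).

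The antigen processing genes held 1 of 4 higher with HDAC7 and 3 of 4 lower with MEF2C. Tap1, a subunit of the peptide transporter that loads class I molecules, read 6.82 and 7.03 at day 10 and 6.32 and 6.33 at day 6 in SKO+HDAC7, 6.29 and 6.14 at day 10 and 6.03 and 6.07 at day 6 in SKO+MEF2C, 6.57 and 6.57 at day 10 and 6.16 and 6.15 at day 6 in SKO+Flag, and 7.11 at day 10 and 6.74 at day 6 in GFP. Within each day the order was SKO+HDAC7, SKO+Flag, SKO+MEF2C, and the GFP array lay above all 3. Tap1 differed by 0.26 ± 0.05 with HDAC7 (adjusted p = 0.00998) and by -0.23 ± 0.05 with MEF2C (adjusted p = 0.0193). The MEF2C call was lost without SKO+Flag day 6 array 1, either SKO+MEF2C array of day 6 or SKO+MEF2C day 10 array 2 (adjusted p up to 0.0804).

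B2m, the light chain of class I molecules, read 11.16 and 11.31 at day 10 and 11.18 and 11.22 at day 6 in SKO+HDAC7, 11.08 and 11.05 at day 10 and 10.97 and 10.99 at day 6 in SKO+MEF2C, 11.36 and 11.45 at day 10 and 11.30 and 11.22 at day 6 in SKO+Flag, and 11.60 at day 10 and 10.96 at day 6 in GFP. The SKO+MEF2C arrays were below SKO+Flag at each day, and at day 10 the SKO+HDAC7 arrays were too. B2m stood at -0.12 ± 0.05 with HDAC7 (adjusted p = 0.148) and differed by -0.31 ± 0.05 with MEF2C (adjusted p = 0.00164). Psmb8, a catalytic subunit of the immunoproteasome, read 6.18 and 6.21 at day 10 and 5.57 and 5.35 at day 6 in SKO+HDAC7, 5.60 and 5.58 at day 10 and 5.55 and 5.51 at day 6 in SKO+MEF2C, 6.01 and 6.19 at day 10 and 5.42 and 5.44 at day 6 in SKO+Flag, and 6.13 at day 10 and 5.84 at day 6 in GFP. The SKO+MEF2C arrays lay above SKO+Flag at day 6 and below at day 10, and the mean difference was -0.20 ± 0.06 (adjusted p = 0.0468). That call was lost without any one of 9 arrays (both SKO+Flag arrays of day 6, SKO+Flag day 10 array 2, both SKO+HDAC7 arrays of day 10 and all 4 SKO+MEF2C arrays; adjusted p up to 0.14) and with an intensity-dependent robust prior. The HDAC7 difference of Psmb8 was 0.07 ± 0.06 (adjusted p = 0.528). Psmb9, another immunoproteasome subunit, ranged from 6.26 to 7.32 and was not called (0.22 ± 0.13 with HDAC7, -0.16 ± 0.13 with MEF2C). Psmb9 and Tap1 are read from opposite strands, and their promoter windows overlap by 275 bases.

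The last 4 genes are interferon-induced genes of other kinds, of which 2 were higher with HDAC7 and 3 lower with MEF2C. Rtp4, a transmembrane protein first described as a receptor transporter, read 7.76 and 8.03 at day 10 and 6.79 and 6.88 at day 6 in SKO+HDAC7, 6.62 and 6.67 at day 10 and 6.19 and 6.01 at day 6 in SKO+MEF2C, 7.37 and 7.59 at day 10 and 6.61 and 6.52 at day 6 in SKO+Flag, and 7.45 at day 10 and 7.08 at day 6 in GFP. SKO+HDAC7 lay above and SKO+MEF2C below SKO+Flag at each day. It differed by 0.34 ± 0.07 with HDAC7 (adjusted p = 0.011) and by -0.65 ± 0.07 with MEF2C (adjusted p = 0.000197), the widest MEF2C difference of the 38 genes. Xaf1, which binds the apoptosis inhibitor XIAP, read 6.95 and 7.22 at day 10 and 6.82 and 6.77 at day 6 in SKO+HDAC7, 6.57 and 6.60 at day 10 and 6.34 and 6.07 at day 6 in SKO+MEF2C, 6.80 and 6.94 at day 10 and 6.69 and 6.52 at day 6 in SKO+Flag, and 6.86 at day 10 and 6.35 at day 6 in GFP. The layout was that of Rtp4, but only the MEF2C difference passed (-0.34 ± 0.08, adjusted p = 0.0159, and 0.20 ± 0.08, adjusted p = 0.119, with HDAC7). The MEF2C call was lost without SKO+Flag day 6 array 1, SKO+MEF2C day 6 array 2 or SKO+MEF2C day 10 array 1 (adjusted p up to 0.0649).

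Ifi27, a small hydrophobic protein of intracellular membranes, read 8.55 and 8.56 at day 10 and 8.35 and 8.15 at day 6 in SKO+HDAC7, 8.24 and 8.26 at day 10 and 7.81 and 7.78 at day 6 in SKO+MEF2C, 8.56 and 8.42 at day 10 and 8.19 and 8.26 at day 6 in SKO+Flag, and 8.89 at day 10 and 8.47 at day 6 in GFP. SKO+HDAC7 and SKO+Flag overlapped at both days, and SKO+MEF2C was below both. Ifi27 differed by -0.34 ± 0.05 with MEF2C (adjusted p = 0.00219) and by 0.04 ± 0.05 with HDAC7 (adjusted p = 0.669). Ifi35, which partners with the NMI protein, read 7.49 and 7.41 at day 10 and 7.10 and 6.90 at day 6 in SKO+HDAC7, 7.07 and 6.96 at day 10 and 6.71 and 6.89 at day 6 in SKO+MEF2C, 7.11 and 7.15 at day 10 and 6.83 and 6.92 at day 6 in SKO+Flag, and 7.07 at day 10 and 6.71 at day 6 in GFP. The SKO+HDAC7 arrays of day 10 were the highest, and at day 6 they overlapped SKO+Flag. It differed by 0.22 ± 0.06 with HDAC7 (adjusted p = 0.0357) and by -0.10 ± 0.06 with MEF2C (adjusted p = 0.396). The HDAC7 call was lost without any one SKO+Flag array, SKO+HDAC7 day 6 array 1 or either SKO+HDAC7 array of day 10 (adjusted p up to 0.121), and with array weights.

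**Figure D3:**
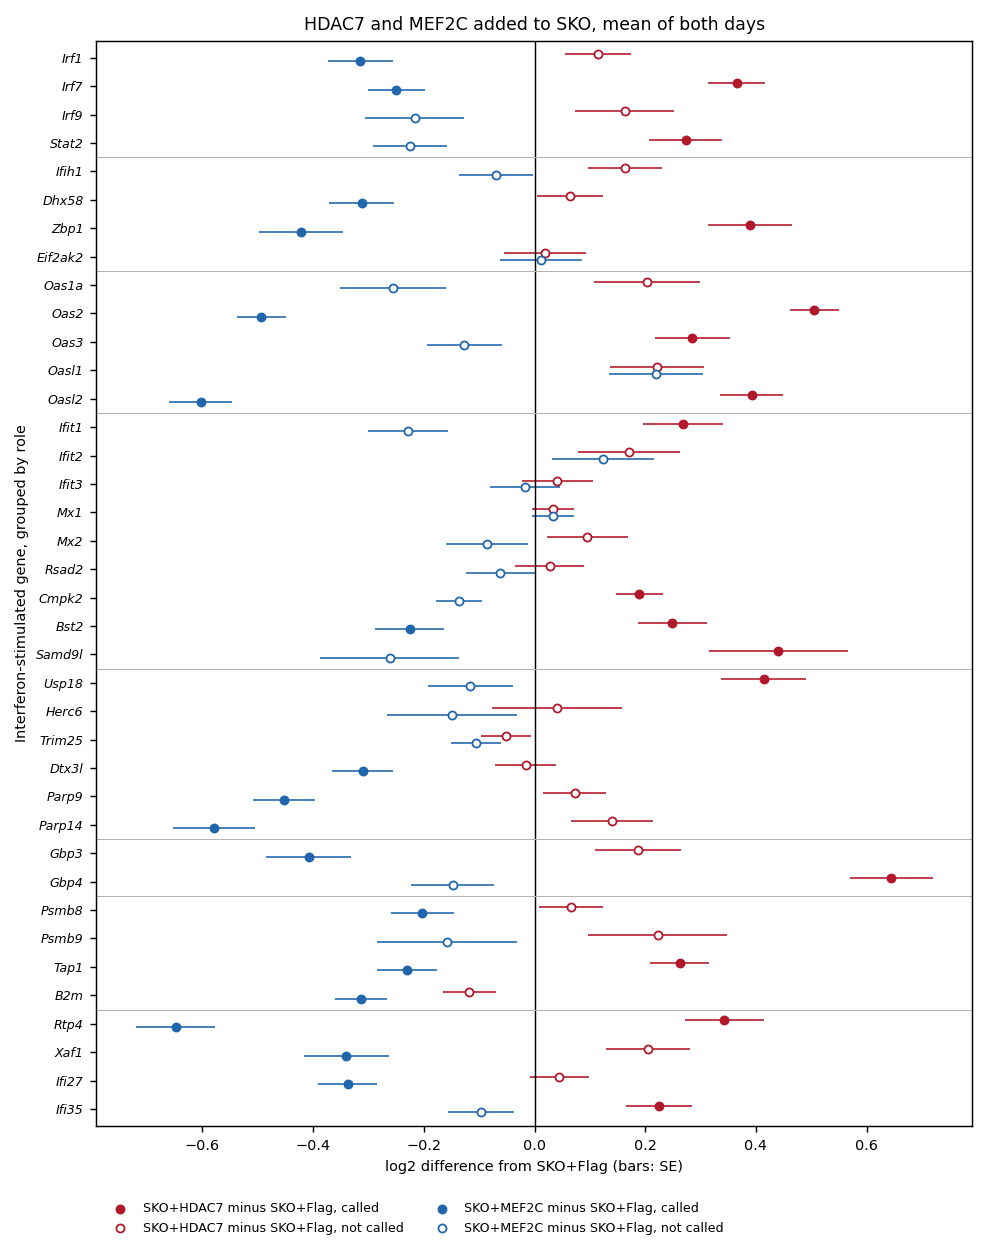
Log2 difference from SKO+Flag (across, bars are SE) of the 38 genes (down the page, by role) for SKO+HDAC7 and SKO+MEF2C, as the mean of both days, with filled points for called genes. The filled SKO+HDAC7 points are all right of 0 and the filled SKO+MEF2C points all left of it, and both sets use the same SKO+Flag arrays.

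The direct comparison of SKO+HDAC7 with SKO+MEF2C leaves out the SKO+Flag values, although the spread is estimated over all arrays. All 38 differences were positive, and 28 genes were called higher and 0 lower, against 10.3% of all genes higher and 11.8% lower. The unadjusted p was under 0.05 for 30 higher and 0 lower. The median was 0.40, beside 0.01 over all genes. Oas2 was 2-fold higher in SKO+HDAC7 (1.000 ± 0.04, adjusted p = 5.51e-08). Oasl2 (0.99 ± 0.06, adjusted p = 3.86e-07) and Rtp4 (0.99 ± 0.07, adjusted p = 2.47e-06) differed about as much, followed by Zbp1 (0.81 ± 0.08) and Gbp4 (0.79 ± 0.07). The 10 genes not called were Eif2ak2, Oasl1, Ifit2, Ifit3, Mx1, Mx2, Rsad2, Herc6, Trim25 and Psmb9. Of the 28 calls, 27 held in every fit without 1 array. Ifih1 (0.23 ± 0.07, adjusted p = 0.0283) lost its call without any one SKO+HDAC7 array, SKO+MEF2C day 6 array 1 or either SKO+MEF2C array of day 10, at an adjusted p of up to 0.108.

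At day 10 alone, 13 genes were higher and 0 lower with HDAC7 (2 arrays against 2), against 3.33% of all genes higher and 3.95% lower. The unadjusted p was under 0.05 for 21 higher and 1 lower. At day 6, 2 were higher, Irf7 (0.36 ± 0.07, adjusted p = 0.0197) and Zbp1 (0.46 ± 0.11, adjusted p = 0.0386), and 0 lower, against 1.82% and 2.76% of all genes. There the unadjusted p was under 0.05 for 9 higher and 0 lower. With MEF2C, 16 genes were lower and 0 higher at day 10 (3% and 4% of all genes), and 7 were lower and 0 higher at day 6 (1.77% and 1.33% of all genes). The unadjusted counts were 21 lower and 0 higher at day 10 and 15 lower and 1 higher at day 6. The 7 at day 6 were Dhx58, Oas2, Oasl2, Parp14, B2m, Rtp4 and Ifi27. In a fit of the compared groups alone the day 10 counts were 5 with HDAC7 and 7 with MEF2C, and those of day 6 were 1 and 2. The shares of all genes called in such fits were not counted, and the shares above belong to the fit of all arrays.

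The change of these differences between days was tested as an interaction. Gbp4 passed for both factors. It lay above the gene median on 4 arrays only, those of day 10 in SKO+HDAC7 and SKO+Flag, and RMA compresses differences of dimmer values. Its HDAC7 difference was 1.13 ± 0.11 at day 10 and 0.16 ± 0.11 at day 6, an interaction of 0.96 ± 0.15 (adjusted p = 0.0449). Its MEF2C difference was -0.65 ± 0.11 at day 10 and 0.36 ± 0.11 at day 6, an interaction of -1.01 ± 0.15 (adjusted p = 0.0474). Of all genes, 0.0401% were called higher and 0.0853% lower in the HDAC7 interaction, and 0.0451% higher and 0.0401% lower in that of MEF2C. The other 37 genes did not pass in either, with an unadjusted p under 0.05 for 8 higher and 0 lower (HDAC7) and 0 higher and 12 lower (MEF2C), Gbp4 included. Both interactions share the SKO+Flag arrays, and both Gbp4 calls were lost in a fit of the compared groups alone and without any one SKO+HDAC7 or SKO+MEF2C array or either SKO+Flag array of day 6. The MEF2C one was also lost without SKO+Flag day 10 array 1 and with quantile normalization, and the HDAC7 one with array weights and with median centring.

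Many of the genes rose with time in each SKO group, and 0 fell. Higher at day 10 than at day 6 were 26 genes in SKO+HDAC7, 11 in SKO+MEF2C and 16 in SKO+Flag (2 arrays against 2). Of all genes, 7.86% were called higher and 6.7% lower in SKO+HDAC7, 1.85% and 1.23% in SKO+MEF2C, and 3.75% and 4.33% in SKO+Flag. The unadjusted p was under 0.05 for 30 higher in SKO+HDAC7, 18 in SKO+MEF2C and 25 in SKO+Flag, and for 0 lower in each. Higher in all 3 groups were 10 genes: Irf1, Irf7, Oas2, Oasl2, Bst2, Dtx3l, Parp9, Parp14, Gbp3 and Rtp4. Another 9 were called in SKO+HDAC7 and in neither other group, and none of the 9 passed the interaction given above. The shares of all genes called in all 3 groups, or in SKO+HDAC7 alone, were not counted. Over all genes, too, calls were most frequent in SKO+HDAC7.

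Gbp4 rose most in SKO+HDAC7, by 1.91 ± 0.11 (adjusted p = 1.12e-06), against 0.95 ± 0.11 in SKO+Flag (adjusted p = 0.000273) and -0.05 ± 0.11 in SKO+MEF2C (adjusted p = 0.935). Oas2 rose by 1.46 ± 0.06 in SKO+HDAC7, by 0.64 ± 0.06 in SKO+MEF2C and by 0.94 ± 0.06 in SKO+Flag, at adjusted p of 3.06e-07, 0.000283 and 8.07e-06. Oasl2 rose by 1.18 ± 0.08 in SKO+HDAC7, 0.58 ± 0.08 in SKO+MEF2C and 0.97 ± 0.08 in SKO+Flag. For 12 genes no group was called, among them Ifit2 (-0.23 ± 0.13 in SKO+HDAC7, -0.10 ± 0.13 in SKO+MEF2C and -0.27 ± 0.13 in SKO+Flag) and Ifit3 (0.00 ± 0.09, -0.06 ± 0.09 and 0.27 ± 0.09 in that order). With GFP there was 1 array per day and so no test. There 29 of the 38 genes read higher at day 10 than at day 6, and 8 by at least 0.5, a size that 2.2% of all genes reached. The GFP differences ran from -0.30 for Oasl1 to 1.01 for Oasl2, with a median of 0.20 beside -0.01 over all genes.

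**Figure D4:**
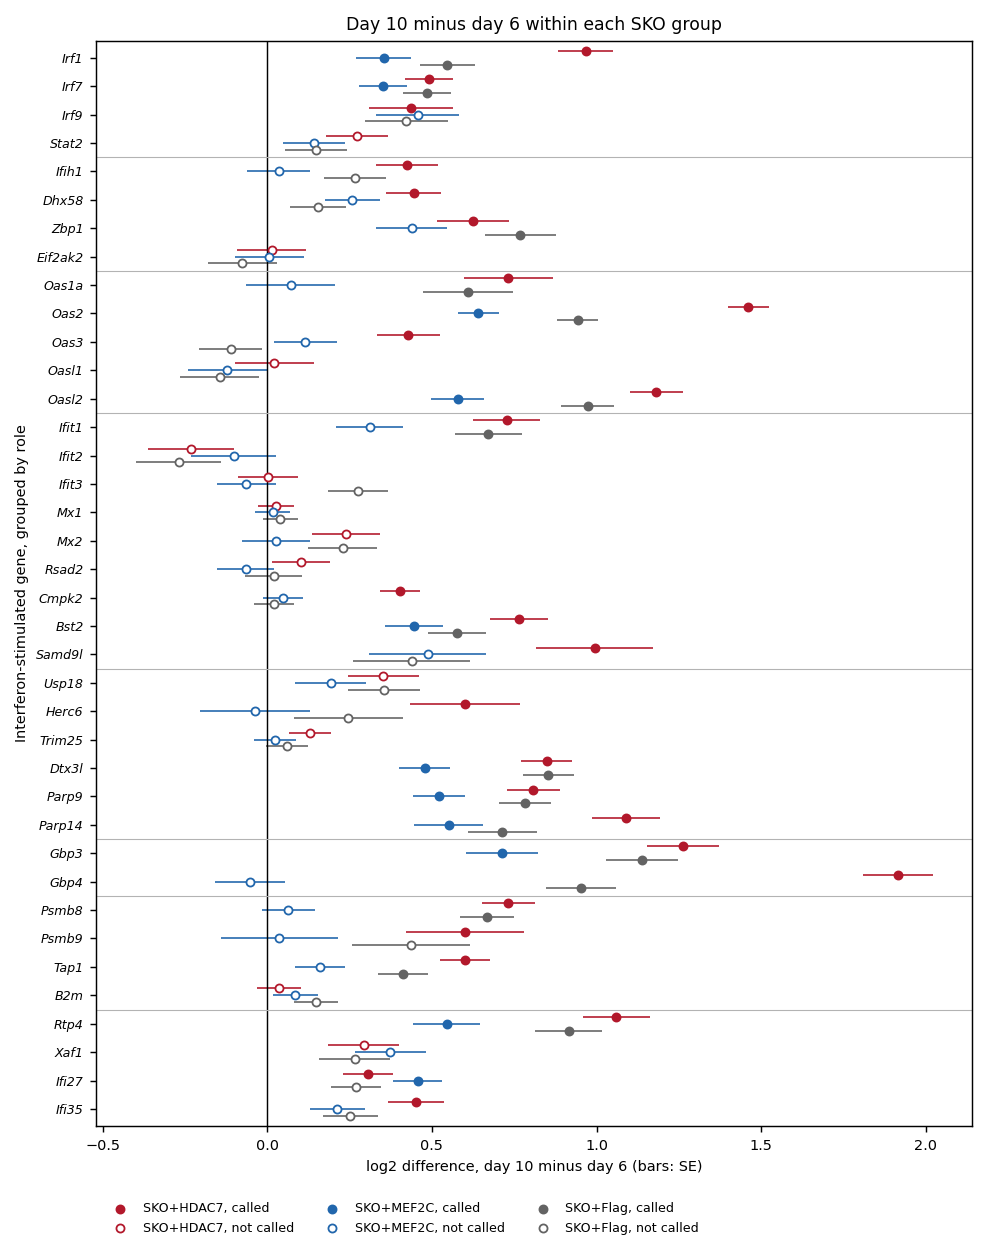
Log2 difference, day 10 minus day 6 (across, bars are SE), of the 38 genes (down the page, by role) within SKO+HDAC7, SKO+MEF2C and SKO+Flag, with filled points for called genes. All filled points lie right of 0, and the SKO+HDAC7 point of Gbp4 lies farthest right.

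Against GFP, SKO with the empty vector moved the genes in both directions. Averaged over the days (4 arrays against 2), 10 were higher and 11 lower in SKO+Flag, against 17.5% of all genes higher and 18.2% lower. The median was -0.09, beside -0.04 over all genes. The GFP group has 1 array at each day, so its spread is taken from the other groups. Lower were Ifit1 (-1.56 ± 0.09, adjusted p = 9.58e-08), Ifit3 (-1.35 ± 0.08, adjusted p = 1.29e-07) and Ifit2 (-0.84 ± 0.11, adjusted p = 0.000123), with Stat2 (-0.70 ± 0.08), Usp18 (-0.65 ± 0.09), Tap1 (-0.56 ± 0.07), Bst2 (-0.48 ± 0.08), Oasl1 (-0.40 ± 0.10), Ifi27 (-0.32 ± 0.07), Ifih1 (-0.24 ± 0.08) and Psmb8 (-0.22 ± 0.07). Ifit3 read 5.01 and 4.83 at day 10 and 4.60 and 4.69 at day 6 in SKO+Flag, against 6.62 at day 10 and 5.64 at day 6 with GFP. On the SKO+Flag arrays Ifit2 and Ifit3 were under the array median and not shown to be above background, where RMA values compress differences. Higher were Gbp3 (1.20 ± 0.09, adjusted p = 1.74e-06) and Zbp1 (1.15 ± 0.09, adjusted p = 2.14e-06), with Oas1a (0.72 ± 0.12), Herc6 (0.71 ± 0.14), Oas2 (0.71 ± 0.05), Gbp4 (0.49 ± 0.09), Dtx3l (0.38 ± 0.07), Trim25 (0.28 ± 0.05), Parp9 (0.28 ± 0.07) and Cmpk2 (0.20 ± 0.05).

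The same GFP arrays serve the other SKO groups. In SKO+HDAC7, 16 genes were higher and 7 lower than with GFP (17.5% and 15.9% of all genes), and in SKO+MEF2C 7 were higher and 19 lower (16.6% and 14.6% of all genes). Ifit1 stood at -1.30 ± 0.09 in SKO+HDAC7, -1.79 ± 0.09 in SKO+MEF2C and -1.56 ± 0.09 in SKO+Flag. Ifit3 stood at -1.31 ± 0.08, -1.37 ± 0.08 and -1.35 ± 0.08 in that order of groups. Zbp1 stood at 1.54 ± 0.09 in SKO+HDAC7, 0.73 ± 0.09 in SKO+MEF2C and 1.15 ± 0.09 in SKO+Flag, and Gbp3 at 1.38 ± 0.09, 0.79 ± 0.09 and 1.20 ± 0.09. Irf7 was higher than with GFP in SKO+HDAC7 (0.39 ± 0.06, adjusted p = 0.000493) and lower in SKO+MEF2C (-0.22 ± 0.06, adjusted p = 0.0191), and in SKO+Flag it stood at 0.03 ± 0.06 (adjusted p = 0.802). Oasl2 was likewise higher in SKO+HDAC7 (0.57 ± 0.07, adjusted p = 5.63e-05) and lower in SKO+MEF2C (-0.42 ± 0.07, adjusted p = 0.000714).

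**Figure D5:**
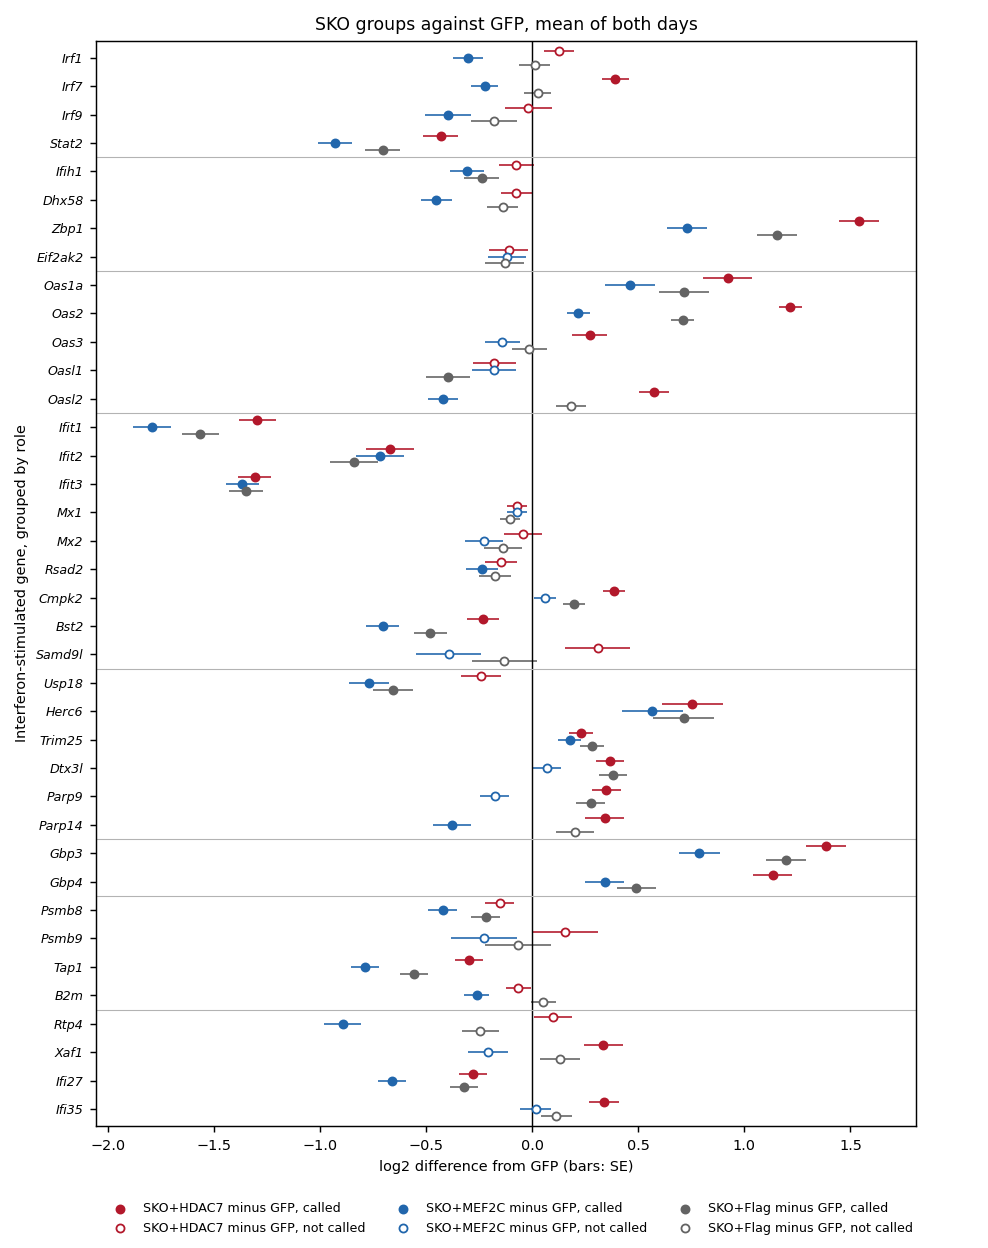
Log2 difference from GFP (across, bars are SE) of the 38 genes (down the page, by role) for SKO+HDAC7, SKO+MEF2C and SKO+Flag, as the mean of both days, with filled points for called genes. Ifit1, Ifit2 and Ifit3 lie left of 0 and Zbp1, Gbp3 and Gbp4 right of it for all 3 groups, which share the 2 GFP arrays.

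By day, SKO+Flag had 10 genes higher and 8 lower than GFP at day 10 (13.7% and 13.2% of all genes), and 6 higher and 10 lower at day 6 (13.2% and 10.8% of all genes). These comparisons set 2 arrays against 1. The SKO difference changed between days for 4 genes, in a comparison added after the data were seen, and for 0 in a fit of the compared groups alone. Oas2 stood at 1.08 ± 0.08 at day 10 and 0.34 ± 0.08 at day 6 (change 0.75 ± 0.11, adjusted p = 0.00234), and Parp9 at 0.59 ± 0.10 and -0.04 ± 0.10 (change 0.63 ± 0.14, adjusted p = 0.024). The change was negative for Ifit3 (-1.70 ± 0.11 at day 10 and -1.001 ± 0.11 at day 6, change -0.70 ± 0.16, adjusted p = 0.0277) and for B2m (-0.19 ± 0.08 and 0.30 ± 0.08, change -0.49 ± 0.12, adjusted p = 0.0343). Of all genes, 1.9% were called higher and 3.16% lower in it.

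Of 34 further genes of the interferon pathway, listed with earlier results of these data known, 31 were measured. With HDAC7, 2 were higher than in SKO+Flag, Irf3 (0.20 ± 0.06, adjusted p = 0.0471), a factor that induces interferon beta, and Ptpn6 (0.21 ± 0.05, adjusted p = 0.0339), a phosphatase that inhibits the pathway. Ptpn6 did not exceed the gene median on any array. Lower were 3, Jak2 (-0.53 ± 0.06, adjusted p = 0.000358), a kinase of the interferon gamma receptor, Irf2 (-0.27 ± 0.06, adjusted p = 0.0171), an antagonist of IRF1, and Stat3 (-0.16 ± 0.04, adjusted p = 0.0414). These shares, 6.45% higher and 9.68% lower, stand beside 4.83% and 6.06% of all genes. With MEF2C 0 were higher and 3 lower (9.68%, beside 4.82% of all genes), Ddx58 (-0.41 ± 0.06, adjusted p = 0.00167), Socs3 (-0.38 ± 0.05, adjusted p = 0.000338), a feedback inhibitor of cytokine signalling, and Irf2 (-0.29 ± 0.06, adjusted p = 0.0124). Socs3 also had a second probe set of its own, whose values are not given here. Ddx58, the RNA sensor RIG-I and itself induced by interferon, read 8.71 and 8.82 at day 10 and 7.85 and 7.84 at day 6 in SKO+HDAC7, 7.89 and 7.97 at day 10 and 7.52 and 7.46 at day 6 in SKO+MEF2C, 8.36 and 8.47 at day 10 and 7.97 and 7.69 at day 6 in SKO+Flag, and 8.33 at day 10 and 7.94 at day 6 in GFP. Its SKO+MEF2C arrays lay below SKO+Flag at each day, and its SKO+HDAC7 arrays lay above at day 10. In SKO+Flag against GFP 5 of the 31 were higher and 6 lower, among them the receptor chain Ifngr2 (-1.06 ± 0.08) and the kinase Jak1 (-0.55 ± 0.05), both lower. Those shares, 16.1% and 19.4%, are near the 17.5% and 18.2% of all genes. The 6 interferon genes measured, Ifnb1, Ifna2, Ifna4, Ifng, Ifne and Ifnk, lay between 4.38 and 5.67, below the median of every array, and none was called between the SKO groups.

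Markers of other cells were read beside these results, and their part in them was not tested. Of 11 measured markers of blood cells, 9 were below the array median on every array, Ptprc, Csf1r, Adgre1, Aif1 and Tyrobp included. The mean over the list ran from 5.18 to 5.31 in SKO+HDAC7, 5.11 to 5.28 in SKO+MEF2C and 5.04 to 5.24 in SKO+Flag, and stood at 5.11 and 5.08 with GFP. Cd68, a lysosomal protein of macrophages that other cells also make, was higher with HDAC7 than with SKO+Flag (0.63 ± 0.07, adjusted p = 0.000135) and higher in SKO+Flag than with GFP (0.55 ± 0.08, adjusted p = 0.00027). Itgam, an integrin chain of myeloid cells, was higher in SKO+Flag than with GFP (1.000 ± 0.06, adjusted p = 1.89e-07). With HDAC7 it stood 0.54 ± 0.07 from SKO+Flag at day 10 and -0.43 ± 0.07 at day 6, a change between days that passed the test (0.97 ± 0.10, adjusted p = 0.00765). Of 5 endothelial markers 4 were below the array median on every array, and the list mean ran from 5.80 to 5.97 in SKO+HDAC7, 5.57 to 5.66 in SKO+MEF2C and 5.55 to 5.79 in SKO+Flag, with 5.14 and 5.19 for GFP. The fifth, the receptor gene Tek, differed by 0.60 ± 0.06 with HDAC7 and by -0.67 ± 0.06 with MEF2C. Of 4 keratinocyte markers 3 were below the array median throughout, and Krt14 differed by 0.73 ± 0.05 with HDAC7 and -0.33 ± 0.05 with MEF2C. All 5 markers of pluripotent cells were below the array median on every array. The fibroblast list averaged 9.34 to 9.56 on the SKO arrays, against 11.07 and 10.39 with GFP at day 10 and day 6. Within that list the genes moved in opposite directions with HDAC7, 4 of 8 higher and 3 lower than in SKO+Flag. These shares, 50% and 37.5%, stand beside 4.83% and 6.06% of all genes. Higher were Col3a1 (0.88 ± 0.05), Dcn (0.49 ± 0.07), Lum (0.35 ± 0.10) and Pdgfra (0.23 ± 0.07), and lower were Col1a2 (-0.46 ± 0.05), Thy1 (-0.37 ± 0.05) and Col1a1 (-0.34 ± 0.05). With MEF2C 1 was higher, Thy1 (0.53 ± 0.05), and 0 were lower, beside 5.49% and 4.82% of all genes. In SKO+Flag against GFP 7 of the 8 were lower (87.5%) and 0 higher, beside 18.2% and 17.5% of all genes.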

How the data were processed

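Total RNA of 14 samples was read on Affymetrix arrays. The authors deposited log2 values for each probe set, made with RMA and Partek (versions not given) per the submitters' processing notes; the build they used is not given in the sources used here. The values were used as they stood. RMA background correction pulls dim probe sets together, so differences of dim genes are compressed. No detection calls were used. Precision is limited by how few arrays there are.

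The table held 28815 probe sets, of which 21780 had 1 gene symbol in the platform annotation, 1605 several and 5430 no name here. Of the named ones 21689 matched a RefSeq gene table (GRCm38.p6) by Entrez ID and 91 did not, and 0 symbols changed. Keeping the probe set with the highest mean per gene left 19935 genes. Promoter stretches came from a RefSeq table of the same assembly.

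One group-means model over 8 groups (vector by day) was fitted with limma 3.58.1 in R 4.3.3 (lmFit, eBayes; 6 residual and 4.71 prior degrees of freedom). A call needs an adjusted p under 0.05 (Benjamini-Hochberg over all genes). Differences are log2, first group minus second, with their SE. The procedure was tested on simulated data.

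Values on every array are given for members called with HDAC7 or MEF2C against SKO+Flag, averaged over days; other members get ranges. The members, the pathway list and the marker lists were chosen with earlier results of these data known. Arrays were grouped by the genotype and time labels, and a description repeated on all arrays that names a pre-iPSC sample was not used. The alternatives tried were leaving out each array, a fit of the compared groups alone, a replicate block in 2 forms, array weights, median centring, quantile normalization, averaging a gene's probe sets, dropping genes at or under the median level, and an intensity-dependent robust prior.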

Additional observations from a re-analysis of the deposited data

Results flagged for a closer look

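Gbp4 stood out because the difference made by each added factor changed between days. The HDAC7 difference was larger at day 10 than at day 6 by 0.96 ± 0.15 (SE, limma adjusted p = 0.0449). The MEF2C difference changed the other way, by -1.01 ± 0.15 (limma adjusted p = 0.0474). Both calls were lost in a fit of the compared groups alone and without any one SKO+HDAC7 or SKO+MEF2C array, the HDAC7 one also with array weights or median centring and the MEF2C one with quantile normalization. Both were also lost with the experiment number as a replicate block. Both rest on the same SKO+Flag arrays, on which Gbp4 read 6.32 and 6.07 at day 10 and 5.37 and 5.12 at day 6. Gbp4 did not exceed the gene median on any array of day 6 or of SKO+MEF2C, and RMA compresses differences of such dim values.

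Between SKO+Flag and GFP the difference changed between days for 4 genes, with limma and 1 GFP array a day. In a fit of the compared groups alone all 4 calls were lost. It was larger at day 10 for Oas2 (by 0.75 ± 0.11, adjusted p = 0.00234) and Parp9 (by 0.63 ± 0.14, adjusted p = 0.024). It was smaller or more negative at day 10 for Ifit3 (by -0.70 ± 0.16, adjusted p = 0.0277) and B2m (by -0.49 ± 0.12, adjusted p = 0.0343). No cause of these changes was tested.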

How the results depend on the processing

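None of the 60 called differences between SKO groups, averaged over days, changed sign under any alternative run. With all arrays kept and no block, 3 of these calls were lost with each of quantile normalization, median centring and the compared groups alone, 2 with the robust prior and 1 each with array weights and averaged probe sets. Averaged over days, the counts of genes called with HDAC7 or MEF2C against SKO+Flag and between the 2 stayed within 1.5 times of those reported under every alternative that kept all arrays. Leaving out 1 array gave 9 to 17 called with HDAC7 against SKO+Flag (9 without SKO+HDAC7 day 6 array 1), 14 to 25 with HDAC7 against GFP (14 without GFP at day 10) and 17 to 28 with MEF2C against GFP (17 without GFP at day 6). Without a GFP array, the comparisons with GFP use the other day alone and are no longer means of both days. No share of all genes was counted under the alternatives. Counts by day were less stable. For HDAC7 at day 10 leaving out 1 array gave 5 to 13: 6 without SKO+Flag day 10 array 1, 7 and 5 without SKO+HDAC7 day 10 array 1 or 2, and 7 without either SKO+MEF2C array of day 10. The count was 8 with array weights and 5 with the compared groups alone. For HDAC7 at day 6 it was 0 to 3 without 1 array (0 or 1 without any one SKO+HDAC7 array, either SKO+Flag array of day 6 or either SKO+MEF2C array of day 10), 1 with the compared groups alone or median centring, 4 with quantile normalization and 5 over genes above the median level. For MEF2C at day 10 it was 9 to 16 without 1 array (9 without SKO+MEF2C day 10 array 2) and 7 with the compared groups alone. At day 6 it was 0 to 8 without 1 array (0 without either SKO+Flag array of day 6, 1 without either SKO+MEF2C array of day 6, 4 without either of day 10) and 2 with the compared groups alone. The change of the HDAC7 difference between days gave 0 to 5 calls without 1 array (5 without SKO+Flag day 10 array 2), and 0 with array weights, the compared groups alone or median centring. That of MEF2C gave 0 to 1, and 0 with the compared groups alone, quantile normalization or genes above the median level. The last leaves out Gbp4 with the other 11 of 12 members whose mean is at or below 5.96, so its count of 0 is no test of the Gbp4 call. Day 10 against day 6 in SKO+MEF2C gave 4 to 12, with 4 to 6 without any one SKO+MEF2C array. The change of the SKO difference gave 2 to 6 (2 without SKO+Flag day 6 array 2), and 0 with the compared groups alone. Fits to the compared groups alone have fewer arrays, and the filter on level removes genes; the cause of the other shifts was not tested.

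The labels do not say whether arrays with the same experiment number share a culture or a day. Of 15 pairs of SKO groups 4 had same-numbered deviations that correlated above 0.1 (range -0.24 to 0.18). With the number as a replicate block, in either form, both changes between days gave 0 calls, and within each day the SKO+MEF2C count for day 10 against day 6 was 6. Within each day the calls of Ifi35 with HDAC7 (adjusted p = 0.0526) and Bst2 with MEF2C (adjusted p = 0.0516) were lost, and with both days together that of Psmb8 with MEF2C (adjusted p = 0.0636). The other counts stayed within 1.5 times. The cause was not tested. The median of all genes moved by under 0.1 under each scaling. The median of the 38 genes kept its sign in each comparison except SKO+Flag against GFP at day 10, which was 0.02, and -0.01 with quantile normalization. Dim genes, the single GFP arrays and 2 arrays a group limit what small differences can show.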
